A study of Mus musculus with 19 samples.

Results

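The fast fibre sarcomere genes described here are Tnni2, Tnnc2, Tnnt3, Tpm1, Mylpf, Myl1, Mybpc2, Actn3, Atp2a1 and Pvalb. They were chosen by name, as the contractile, calcium pump and calcium buffer genes of fast muscle fibres with the myosin heavy chains left out, and no measured value entered that rule. Earlier results of these data were known when the choice was made. They are 10 of the 14707 genes in the deposited table, and all 10 were among the 13367 genes tested, those with a mean signal of at least 10 over the libraries. RNA came from the gastrocnemius, the large calf muscle of mixed fibre type, of male mice whose strain the labels spell C657Bl/6J. The 19 libraries fall into 4 groups: young lean (YL, n = 4), young obese (YO, n = 5), aged lean (AL, n = 5) and aged obese (AO, n = 5). Young mice were 6 months old and aged mice 20 to 21 months old, lean mice received a diet with 12% of its energy as fat, and obese mice a diet with 60%. No transgene, drug or surgery is named for any group. The series' design text differs from the sample labels: it names the tibialis anterior, paired-end sequencing and aged mice of 21 to 24 months, where the labels give the gastrocnemius, single-end sequencing and the ages above. The sample labels were followed. The sources used here do not state that every library is a separate animal, so the p-values describe the spread between these libraries, which may be technical in part.

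Fast (type II) fibres contract and relax quickly. Several proteins of their contractile machine have genes of their own, separate from those used in slow (type I) fibres. Calcium released from the sarcoplasmic reticulum binds troponin C, which moves troponin I, troponin T and tropomyosin on the thin filament and lets myosin pull. The calcium pump then returns the calcium to the reticulum, and parvalbumin binds it in the cytosol in the meantime, so that fast fibres relax quickly. The mouse gastrocnemius is made mostly of fast fibres. In whole muscle, fewer cells of a type and less RNA per cell cannot be told apart.

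The 5 muscle markers Ckm, Acta1, Myh4, Des and Mb were all above 0 in every library. An estimated 15.07 to 17.85 M reads lay behind each library. Averaged over pairs of libraries, the correlation across genes was 0.972 between YL1 and the rest of YL and 0.973 between YL1 and the other groups, and for YO2 it was 0.973 and 0.976, the only libraries closer to other groups than to their own. Calls of the fast genes are given with and without these 2 libraries. Other results, among them those for slow fibre genes, ratios, further gene lists, mRNA length and correlations, are not given separately without them.

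The 10 genes were among the most abundant in the muscle. They held ranks 3 to 17 of the table by mean signal, with Atp2a1 at rank 3 and Tnni2 at rank 17. Together they made up 11.6% of all signal, from 9.87% in YL1 to 12.9% in YO2. The share was 11.3% ± 1.18 (SD, n = 4) in YL, 11.7% ± 0.909 (n = 5) in YO, 11.5% ± 0.469 (n = 5) in AL and 11.8% ± 0.578 (n = 5) in AO, so the group means differed by less than the SD in YL. Signal is given in ku, where 1 ku is 1000 units of the authors' normalized signal. Per kilobase of annotated mRNA, Tnnt3 was highest at 239 ± 21.2 ku (SD over the 19 libraries). Myl1 followed at 177 ± 23.2, then Tnnc2 at 163.4 ± 15.2, Atp2a1 at 163.1 ± 18.0 and Mylpf at 146 ± 14.8. Tpm1 stood at 136 ± 16.6, Tnni2 at 125 ± 11.0 and Pvalb at 114 ± 20.4. From Myl1 down to Pvalb, each gene's mean lay within the larger SD of its neighbour's. Actn3 at 52.0 ± 8.16 and Mybpc2 at 29.5 ± 4.38 formed the low end, and the ranges of these last 2 did not overlap (37.2 to 69.9 against 20.3 to 35.9). The slow fibre counterparts lay far lower, between 0.854 for Tnni1 and 6.45 for Actn2 on the same scale. Gene-level values do not separate the splice forms that Tnnt3, Tpm1 and Myl1 are known to make.

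**Figure D1:**
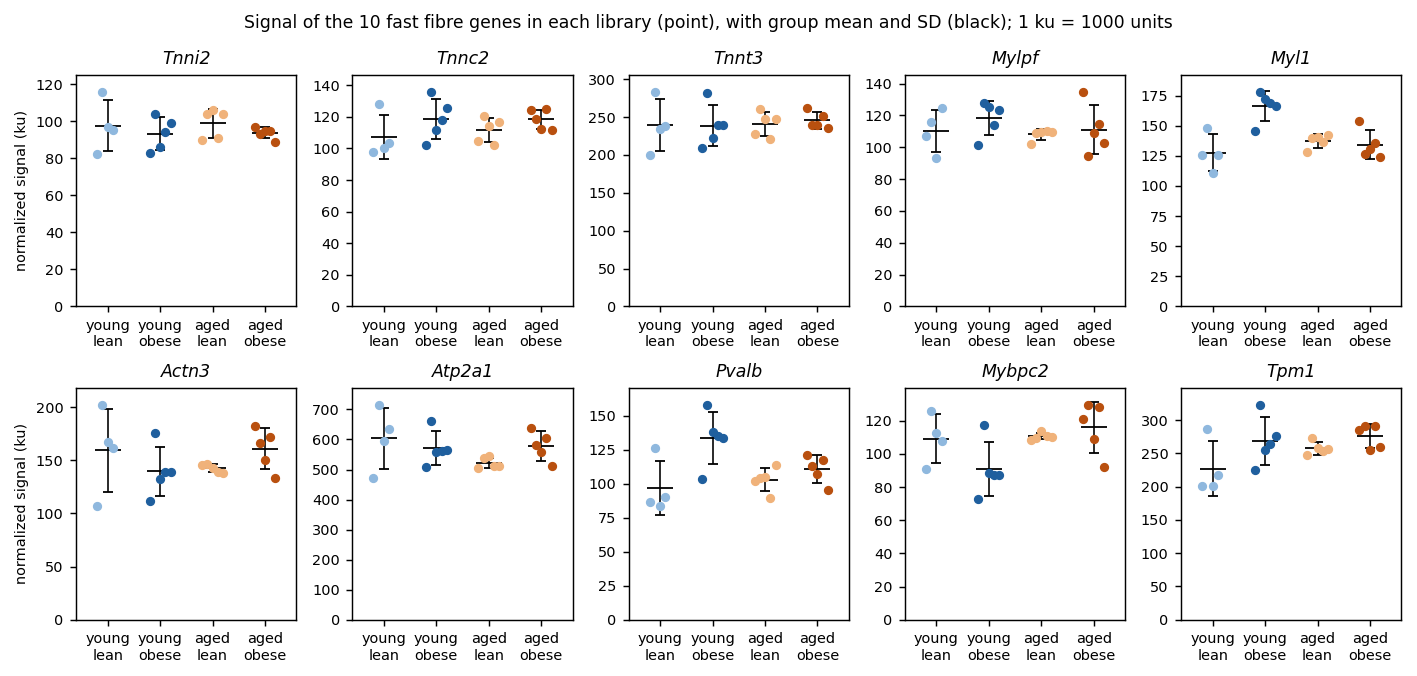
Normalized signal in ku (y axis, from 0) of each gene in each of the 19 libraries (points), by group, with the group mean and SD in black. Only Myl1 and Pvalb differed between groups by the test across all genes, both higher in young obese than in young lean muscle. The aged lean group had the smallest SD for every gene but Tnni2, Tnnc2 and Tnnt3, for which the aged obese group did.

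The first question was what the high-fat diet did in young mice. Of the 10 genes, 2 rose in YO against YL and 8 did not pass the test: Myl1, the essential light chain of fast myosin, rose 1.31-fold, and Pvalb, the calcium buffer of fast fibres, rose 1.39-fold. Over all genes tested, 11.0% were called in this comparison in either direction (limma, Benjamini-Hochberg adjusted p under 0.05), and 5.70% were called higher. With 2 called of 10, the share lies near this background at so small a number, and the median log2 change of the 10 genes was 0.05, against 0.01 over all genes.

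Myl1 signal was 125.7, 147.9, 111.0 and 125.4 ku in the 4 YL libraries and 145.5, 178.2, 172.2, 169.3 and 166.8 ku in the 5 YO libraries. All YO libraries but YO1 lay above every YL library, so the groups overlapped by 1 library. The log2 change was 0.39 (SE 0.11, 95% interval 0.16 to 0.61, adjusted p = 0.0279, limma), from 127 ± 15.2 ku (SD, n = 4) to 166 ± 12.4 ku (n = 5). Pvalb signal was 86.8, 126.5, 83.5 and 90.0 ku in YL and 103.8, 157.9, 138.3, 135.1 and 133.7 ku in YO. Here too 4 of 5 YO libraries exceeded every YL library, and YL2 was the single high library among the lean. Its log2 change was 0.48 (SE 0.14, 95% interval 0.19 to 0.76, adjusted p = 0.0324, limma), from 96.7 ± 20.0 ku to 134 ± 19.4 ku.

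Mybpc2, the fast myosin binding protein C of the thick filament, did not pass the test. Its signal was 90.7, 126.1, 112.4 and 108.0 ku in YL and 73.1, 117.7, 88.6, 87.2 and 87.3 ku in YO, so that 4 of 5 YO libraries lay below all YL libraries and YO2 lay among them. The log2 change was -0.28 (SE 0.13, adjusted p = 0.181). Tpm1, the alpha-tropomyosin of the thin filament, had a log2 change of 0.25 (SE 0.14, adjusted p = 0.227), with 227 ± 41.1 ku in YL and 269 ± 35.6 ku in YO. The 3 fast troponin genes were close to level: Tnni2, the inhibitory subunit, gave -0.06, Tnnc2, the calcium sensor, 0.14, and Tnnt3, which ties the complex to tropomyosin, 0.00 (adjusted p = 0.747, 0.403 and 0.996). Mylpf, the regulatory light chain of fast myosin, gave 0.10, Actn3, the Z-disc protein of fast fibres, -0.17, and Atp2a1, the fast calcium pump SERCA1, -0.07 (adjusted p = 0.589, 0.508 and 0.805). The sign of the Tnni2 value turned when YL2 was left out, to 0.03. The 95% interval for Tnnt3 ran from -0.26 to 0.27, and that for Atp2a1 from -0.39 to 0.26, so changes of about this size could not have been seen.

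The calls of Myl1 and Pvalb depended on single libraries. Both were lost when YL3, YL4, YO3, YO4 or YO5 was left out, with adjusted p up to 0.0954 for Myl1 and 0.101 for Pvalb, while the log2 changes stayed between 0.32 and 0.46 for Myl1 and between 0.41 and 0.61 for Pvalb over all 19 such fits. Without YL1 and YO2 together, Myl1 was still called (0.36, adjusted p = 0.0317), Pvalb was not (0.37, adjusted p = 0.0704), and Mybpc2 and Actn3 were called lower in YO, at -0.46 (adjusted p = 0.00939) and -0.44 (adjusted p = 0.0176).

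Markers of other tissue moved in the same comparison, where 11.0% of all genes were called. The summed signal of the 6 tendon markers Tnmd, Scx, Mkx, Chad, Kera and Cilp2 was 518 to 1055 in YL and 1869 to 4849 in YO, with no overlap and none of the 6 at 0, and 4 of the 6 rose (Cilp2, Tnmd, Chad and Kera). With the mean tendon marker value as a covariate, the log2 changes were 0.52 for Myl1 and 0.59 for Pvalb, neither called (adjusted p = 0.328 and 0.357), and no gene of the table was called in this comparison. The SE grew from 0.108 to 0.161 for Myl1 and from 0.137 to 0.207 for Pvalb. This tendon score was 5.99 to 7.17 in YL and 7.67 to 9.13 in YO, so covariate and diet group cannot be told apart here. Some clock genes moved as well: of 10, Arntl (log2 0.77) and Npas2 (1.34) rose and Per3 (-1.05) fell in YO, and 7 were not called. With a clock score as a covariate the values were 0.43 for Myl1 (adjusted p = 0.0925) and 0.60 for Pvalb (adjusted p = 0.0705).

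**Figure D2:**
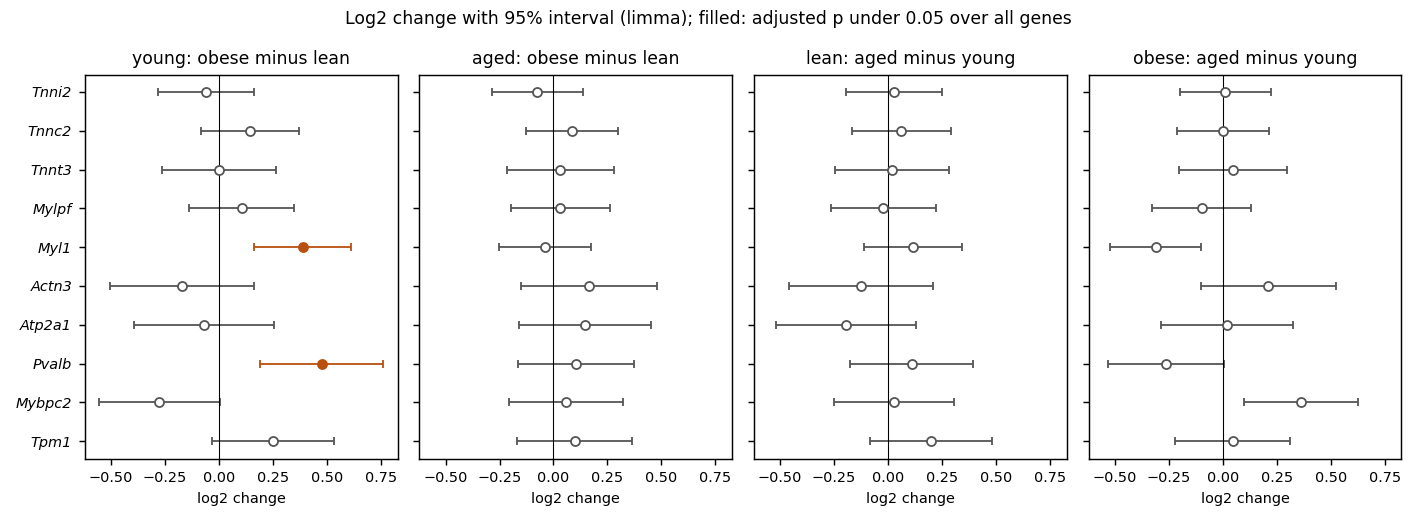
Log2 change (x axis) of each gene in the 4 comparisons of diet and age, with the 95% interval from limma as bars; filled symbols have an adjusted p under 0.05 over all genes. Myl1 at 0.39 and Pvalb at 0.48 in the young diet comparison are the only filled points.

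In aged mice no fast gene was called for diet. The count was 0 of 10 in AO against AL, at a background of 0.292% of all genes called, and at an unadjusted p under 0.05 the count was also 0, with 0.284 for Actn3 the lowest (limma). The log2 changes lay between -0.07 for Tnni2 and 0.17 for Actn3, with a median of 0.07. Myl1 was 128.1, 139.6, 140.7, 136.9 and 142.2 ku in AL and 153.8, 126.8, 130.8, 135.8 and 123.7 ku in AO. The AO libraries lay on both sides of the AL libraries, and the log2 change was -0.04 (95% interval -0.25 to 0.17, adjusted p = 0.926). Pvalb was 103 ± 8.67 ku in AL and 111 ± 10.1 ku in AO (log2 0.10, 95% interval -0.16 to 0.37, adjusted p = 0.820).

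The difference between the diet effects of aged and young mice was tested as an interaction. No fast gene was called, at a background of 2.98%, and at an unadjusted p under 0.05 the count was 1, Myl1 (limma). The interaction for Myl1 was -0.43 (SE 0.15, adjusted p = 0.0999) and for Pvalb -0.37 (SE 0.19, adjusted p = 0.244), and Actn3 and Mybpc2 gave 0.34 and 0.33 (adjusted p = 0.369 and 0.286). With values scaled to library totals the Myl1 interaction was called (-0.48, adjusted p = 0.0401). Without YL1 and YO2 those of Actn3 (0.60, adjusted p = 0.0167) and Mybpc2 (0.52, adjusted p = 0.0255) were called. A larger diet effect in the young is therefore not shown for Myl1 or Pvalb by the test as set.

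Age on the lean diet gave no call among the fast genes either, in AL against YL, at a background of 4.08%, and the count at an unadjusted p under 0.05 was also 0 (limma). The log2 changes ran from -0.19 for Atp2a1 to 0.20 for Tpm1, with a median of 0.03. Atp2a1 was 471.4, 714.7, 593.3 and 634.9 ku in YL and 504.4, 537.7, 543.4, 512.1 and 510.7 ku in AL. The 5 AL values sat inside the YL range, and the spread in YL (SD 101.5 ku) was wider than that in AL (SD 17.6 ku). Actn3 showed the same difference in spread, with an SD of 39.1 ku in YL and 3.66 ku in AL. The difference in spread itself was not tested.

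On the high-fat diet, age (AO against YO) gave no call among the 10 genes, at a background of 9.02% and a count of 2 at an unadjusted p under 0.05 (limma), Myl1 and Mybpc2. Myl1 was 166 ± 12.4 ku in YO and 134 ± 11.9 ku in AO, and 4 of 5 AO libraries lay below every YO library. The log2 change was -0.31 (SE 0.10, 95% interval -0.52 to -0.10, adjusted p = 0.0611). Mybpc2 had a value of the other sign, from 90.8 ± 16.3 ku to 116 ± 15.5 ku, with the 5 AO libraries at 121.2, 129.6, 109.2, 128.2 and 92.4 ku. Its log2 change was 0.36 (SE 0.13, 95% interval 0.10 to 0.63, adjusted p = 0.0767). Myl1 passed the threshold in 9 and Mybpc2 in 5 of 33 alternative fits, among them those without YL1, YL2, YO1 or AO1 for Myl1 (adjusted p = 0.0453, 0.0429, 0.0497 and 0.0485) and those without YO2 or AO5 for Mybpc2 (0.0146 and 0.035). Without YL1 and YO2 together, Mybpc2 was called at 0.46 (limma, adjusted p = 0.00588) and Myl1 was not called. Pvalb gave -0.26 (SE 0.13, adjusted p = 0.198), and the other 7 genes lay between -0.10 and 0.21. This comparison and the young diet comparison share the YO libraries, so their values are not independent. The tendon markers summed to 351 to 1323 in AO, below the YO range given above, and 5 of the 6 fell with age on this diet. Of the 10 clock genes Per3 rose (log2 0.77) and Npas2 fell by 1.17, and of 6 Schwann cell markers Pmp22 fell by 0.68. Neither Myl1 nor Mybpc2 was called with the tendon or the clock covariate. The tendon score was at most 7.13 in AO and at least 7.67 in YO, so that covariate and the group cannot be told apart.

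Where both age and diet differed (AO against YL), no fast gene was called, at a background of 5.58%, and at an unadjusted p under 0.05 the count was 1, Tpm1 (limma). Tpm1 had the largest log2 change, 0.30 (SE 0.14, 95% interval 0.02 to 0.58, adjusted p = 0.208), from 201.5, 287.2, 200.3 and 217.9 ku in YL to 285.3, 290.7, 254.6, 290.8 and 259.1 ku in AO. YL2 stood with the AO libraries and the other 3 YL libraries lay below all of them. The remaining 9 genes lay between -0.05 and 0.21.

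The fast genes were also set against transcript length. The 3 genes with the longest annotated mRNA, Actn3, Atp2a1 and Mybpc2 (2887 to 3611 bases), had log2 changes from -0.28 to -0.07 with diet in the young, and the 7 shorter genes (700 to 1898 bases) from -0.06 to 0.48. With age on the high-fat diet the order was the opposite, from 0.02 to 0.36 for the long genes and from -0.31 to 0.05 for the short ones. Across the 10 genes, which share the same libraries and are not independent replicates, Pearson's r between log2 length and log2 change was -0.59 for diet in the young, 0.64 for diet in the aged, -0.47 for age on the lean diet, 0.69 for age on the high-fat diet and -0.05 for age and diet together. The length split was chosen after the values were seen. A like but smaller slope ran through the whole table: in the young diet comparison the median log2 change was 0.02 in the bin of shortest genes (median 1034 bases) and -0.08 in that of the longest (7630 bases). With each library's trend against length removed, an alternative added after seeing the data, Myl1 gave 0.30 (adjusted p = 0.10) and Pvalb 0.39 (adjusted p = 0.0875) for diet in the young, and neither was called.

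**Figure D3:**
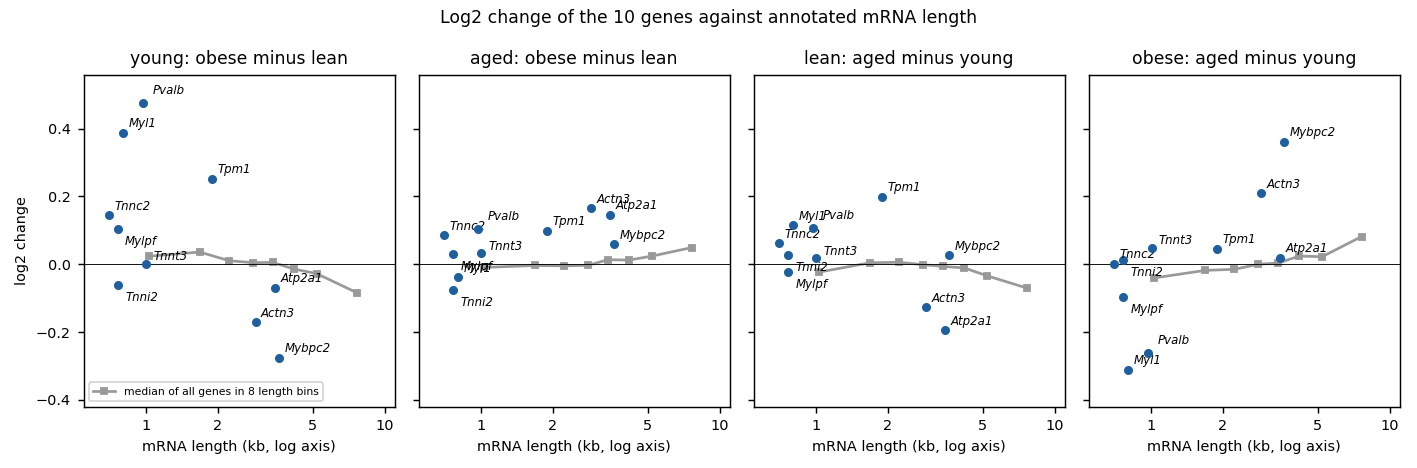
Log2 change (y axis) of the 10 genes (points) against annotated mRNA length in kilobases (log x axis) in 4 comparisons, with the median of all genes in 8 bins of length as grey squares. In the young diet comparison the 3 long genes lie at or below -0.07, and for age on the high-fat diet they lie at or above 0.02.

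Each fast gene but Pvalb, for which no slow partner was listed, was next set against its slow counterpart, since a ratio within a library does not depend on the scaling between libraries. In AO against AL, 4 of 9 slow partners rose (background 0.292%, as above) and none fell. Tnni1, slow troponin I, rose from 0.488 ± 0.231 to 1.91 ± 0.94 ku (log2 1.96, SE 0.32, adjusted p = 0.0110), and Tnnc1, the troponin C of slow and cardiac muscle, from 0.541 to 1.74 ku (log2 1.64, SE 0.31, adjusted p = 0.0272). Tnnt1, slow troponin T, rose by log2 1.47 (SE 0.30, adjusted p = 0.0442) and Tpm3, the slow tropomyosin gene, by 0.97 (SE 0.20, adjusted p = 0.0488). In AO against YL, where 5.58% of all genes were called, Tnni1, Tpm3 and Tnnt1 rose (log2 1.46, 0.76 and 1.11). In AO against YO Tnni1 alone rose (1.20), a share near the background of 9.02%. These counts ran from 0 to 5 and from 0 to 4 when single libraries were left out, and from 1 to 6 and from 0 to 4 under the other alternatives. No slow partner was called for diet in the young, for age on the lean diet or in the interaction. AO5 was the highest of all 19 libraries in each of the 9 slow genes. For diet in the aged the count fell to 2 without YL3, YO4, AL4 or AO3, to 1 without AL1, AL3, AL5, AO1 or AO5, and to 0 without AO2. It was also 1 with robust variance moderation and 2 under scaling to library totals, and it was 6 with the tendon covariate.

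Mean fast to slow ratios were lowest in aged obese muscle in 8 of 9 pairs. The pairs share the same libraries, so they are not independent, and they reuse the slow partner values given above. No fast gene was called for diet in the aged. Tnni2 averaged 98.9 ku in AL and 93.7 ku in AO, and Tnni1 0.488 and 1.91 ku. Tnni2 exceeded Tnni1 by 276.9, 119.8, 348.2, 167.4 and 255.3 times in the 5 AL libraries and by 60.6, 50.3, 61.7, 90.6 and 25.4 times in the 5 AO libraries. The groups did not overlap, which was the case for 1 of the 45 combinations of pair and comparison. The mean log2 ratio was 7.77 ± 0.62 in AL and 5.74 ± 0.67 in AO, a difference of -2.03 (exact two-sided permutation test, p = 0.00794, the smallest 5 against 5 libraries allow, adjusted p = 0.119 over 45 tests). For Tnnc2 to Tnnc1 the difference was -1.56, for Tnnt3 to Tnnt1 -1.43 and for Mylpf to Myl2 -1.27 (exact permutation p = 0.0159 and adjusted p = 0.119 for each). Atp2a1 to Atp2a2 gave -0.90 and Tpm1 to Tpm3 -0.87 (exact permutation p = 0.0238, adjusted p = 0.134). No ratio passed the threshold after adjustment in any of the 5 comparisons, and 10 of the 45 had an unadjusted p under 0.05 (exact permutation test). With 4 against 5 libraries the exact test cannot go below p = 0.0159, and a single ratio at the lowest possible p could not pass the adjustment over 45 tests. The smallest differences between AO and AL were those of Actn3 to Actn2 and Mybpc2 to Mybpc1. Without AO5 the Tnni2 to Tnni1 difference was -1.76, that of Tnnc2 to Tnnc1 -1.31, and that of Actn3 to Actn2 -0.02.

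For diet in the young, Tnni2 to Tnni1 averaged 7.25 ± 0.72 on the log2 scale in YL (n = 4) and 6.93 ± 0.43 in YO (n = 5), and Myl1 to Myl3 5.74 ± 0.57 and 5.79 ± 0.56, with exact permutation p = 0.460 and 0.937. The pairs of Actn3 with Actn2, the alpha-actinin of all fibres, and of Mybpc2 with Mybpc1, the slow myosin binding protein C, had far smaller ratios than the rest, with group means of 2.79 to 3.17 and 2.35 to 2.67 on the log2 scale against 4.75 to 7.89 for the other 7 pairs. Neither Actn2 nor Mybpc1 is confined to slow fibres.

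**Figure D4:**
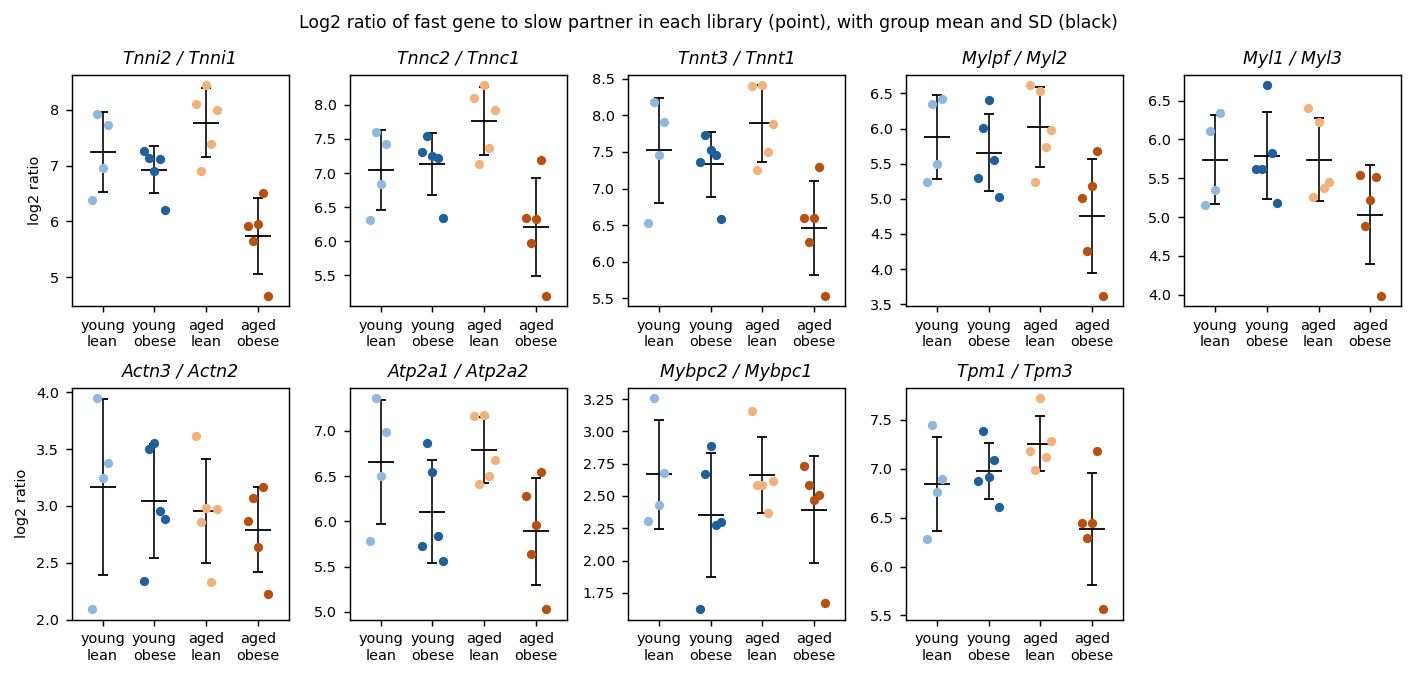
Log2 ratio of each fast gene to its slow partner (y axis, scales differ between panels and do not start at 0) in each library (points), with group mean and SD in black. The aged obese libraries have the lowest mean in 8 of 9 pairs, and AO5 is the lowest aged obese library in all 9.

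Other genes of the same machine were counted from lists. None of the 3 fast myosin heavy chain genes (Myh4, Myh1 and Myh2) was called in any of the 6 comparisons, and Myh4, the heavy chain of the fastest fibres, gave log2 -0.08 for diet in the young and 0.10 for diet in the aged (adjusted p = 0.817 and 0.892). Of 36 other sarcomere genes, 1 rose and 4 fell with diet in the young, a share near the 11.0% of all genes called in this comparison. Myoz3, a Z-disc protein of fast fibres, rose (log2 0.69, adjusted p = 0.0058), and Myom1 and Myom2, which crosslink the M-band, fell by 0.62 and 0.40, as did Pdlim5, a Z-disc adaptor (by 0.49), and Smpx, a small protein of muscle costameres (by 0.27). With age on the high-fat diet, where 9.02% of all genes were called, 7 of the 36 rose and none fell, among them Pdlim3, an actinin-binding Z-disc protein (0.81), Nrap, an anchor of thin filaments at the membrane (0.84), Myom1 (0.45), Myom2 (0.35), Smpx (0.22) and Des, the muscle intermediate filament desmin (0.33). The list's median was -0.19 in the young diet comparison and 0.24 for age on the high-fat diet, against 0.01 and 0.00 over all genes. None of the 36 was called for diet in the aged. For age on the lean diet, where 4.08% of all genes were called, Myoz3 alone rose (0.79). In the interaction, where 2.98% of all genes were called, Myom1 (0.69) and Myoz3 (-0.77) were called. In AO against YL, where 5.58% were called, Myoz3 (0.71) and Myom3 (1.11) rose and Pdlim5 fell by 0.48. At so small a number these counts lie near those shares.

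Of 20 calcium handling genes tested out of 21 listed, 2 rose with diet in the young, a share near the 11.0% of all genes called: Casq1, the calcium store protein of fast fibres (log2 0.49, adjusted p = 0.0462), and Fkbp1a, a partner of the ryanodine receptor (0.17, adjusted p = 0.0487). The Casq1 value was close to that of Pvalb. With age on the high-fat diet, where 9.02% of all genes were called, 3 of the 20 rose, near that share at so small a number. They were Sln, an inhibitor of the calcium pump (2.83), Cacng1, a subunit of the surface calcium channel (0.92), and Casq2, the slow and cardiac calsequestrin (0.80). Casq2 was also higher in AO than in YL (0.88), where 5.58% of all genes were called. Cacnb1, a subunit of the calcium channel of the surface membrane, fell by 0.44 with age on the lean diet, where 4.08% of all genes were called. None was called for diet in the aged or in the interaction.

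Of 24 regulators of fibre type, Sox6, a repressor of slow genes in fast fibres, was lower than in YL in each of the other 3 groups: by 0.44 in YO, 0.52 in AL and 0.40 in AO (adjusted p = 0.0041, 0.0019 and 0.0065). These 3 comparisons share the 4 YL libraries. Eya4, a transcriptional cofactor, also fell with diet in the young (by 0.41). With age on the high-fat diet Nfatc2, a calcineurin target, rose (0.47), and Tead4, a TEA domain factor, fell by 0.58. In AO against YL Mef2c, a myocyte enhancer factor (0.42) and Nfatc2 (0.71) rose. The Sox6 interaction was 0.55 (adjusted p = 0.0195), and no regulator was called for diet in the aged. Of the 24, 2 were called for diet in the young and 2 for age on the lean diet, against 11.0% and 4.08% of all genes. The count was 3 for age on the high-fat diet and 3 in AO against YL, against 9.02% and 5.58%. In the interaction it was 1, against 2.98%. At so small a number these counts lie near those shares. With single libraries left out, the counts for diet in the young ran from 5 to 13 for the other sarcomere genes, 0 to 5 for the calcium genes and 1 to 3 for the regulators, and those for age on the high-fat diet from 4 to 12, 2 to 4 and 0 to 6. With the tendon covariate none of the sarcomere, calcium or regulator genes was called for diet in the young or for age on the high-fat diet. For diet in the young no gene of the whole table was called under it. Every YO library had a higher tendon score than any YL or AO library, so covariate and group cannot be told apart in these comparisons. With the clock covariate 2 sarcomere genes, 2 calcium genes and 1 regulator were called for age on the high-fat diet.

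The fast genes varied together from library to library. Over the 19 libraries 44 of the 45 pairs of fast genes had a Pearson r above 0 on the log2 scale, with a median of 0.56, and with group means removed all 45 were above 0, with a median of 0.78. The points share the scaling of each library. The same values were not computed for other sets of genes, so this is not shown to be particular to these 10. Genes outside the 10 reached r up to 0.91 with single fast genes. YL1 was the lowest library in 5 of the 10 genes, YL3 in 4 and YO1 in 1, and YL2 and YO2 were the highest in 4 each. The correlations are given over all 19 libraries only, so how far they rest on YL1 and YO2 is not shown. The spread between libraries within groups was 0.12 (Myl1) to 0.23 (Actn3) on the log2 scale. It lay below the median of 0.20 over all genes tested for every one of the 10 but Actn3. Pvalb and Mybpc2, both at 0.19, were close to that median. The spread was not compared with that of genes of like signal.

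The pairs most alike over the 19 libraries were Tnnc2 with Tpm1 (r = 0.92), Myl1 with Pvalb (0.89), Actn3 with Atp2a1 (0.89) and Tnni2 with Tnnt3 (0.88). The least alike was Myl1 with Mybpc2 (-0.24), which became 0.55 with group means removed. Mylpf gave 0.04 with Mybpc2, 0.26 with Tnni2, 0.28 with Actn3 and 0.49 with Atp2a1. Among genes outside the 10, the mean profile of the fast genes was most like Cib2 (0.88), A930016O22Rik (0.88), Rtn2 (0.87), Fzd7 (0.86) and Ckm (0.85), the muscle creatine kinase. By single genes, Mybpc2 was most like Cmya5 (0.90) and Ryr1 (0.88), Actn3 like Dhdh (0.91) and Stat5b (0.91), Mylpf like Acta1 (0.76) and Gapdh (0.73), and Pvalb, after Myl1, like Tmod4 (0.88). After Tpm1, Tnnc2 was most like Rtn2 (0.90), and after Tnnc2, Tpm1 was most like Rtn4 (0.90). Tnnt3 was next most like Fzd7 (0.88), Myl1 like Amd1 (0.85) and Atp2a1 like Stat5b (0.88).

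**Figure D5:**
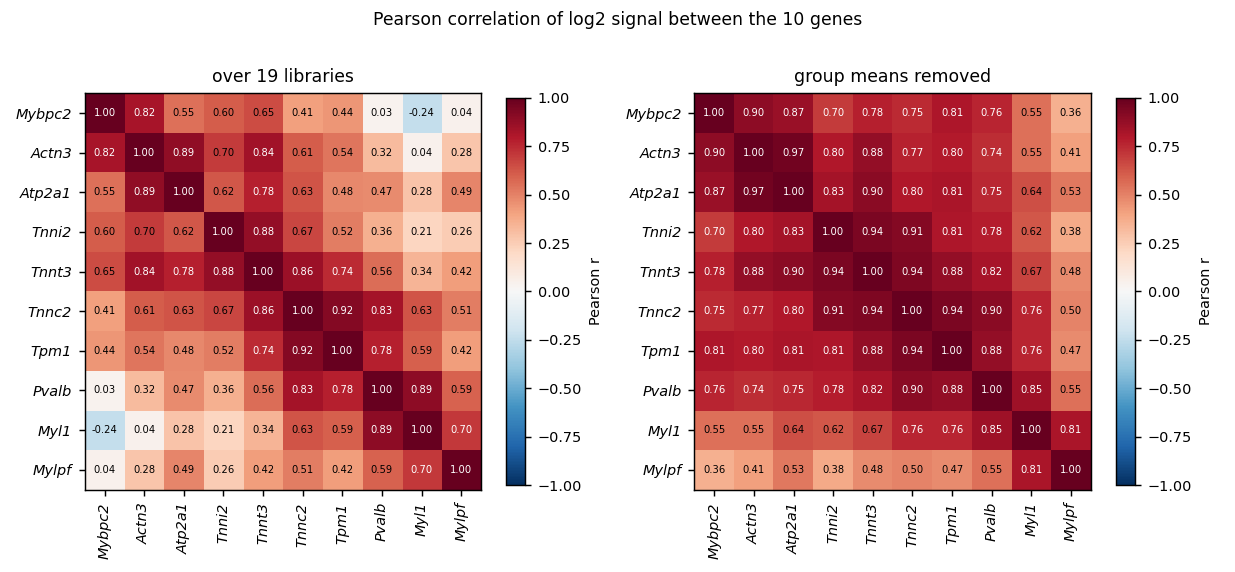
Pearson's r of log2 signal between the 10 genes over 19 libraries (left) and with group means removed (right), on a colour scale from -1 to 1. Mybpc2 with Myl1, at -0.24, is the only pair below 0 on the left, and every pair is above 0 on the right.

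The promoters of the 2 pairs most alike are printed here because these genes varied together over the libraries. RefSeq promoter entries on GRCm38.p6, an older build than the mm39 that the submitters' processing notes name, exist for 7 of the 10 genes in the table used, and the 250 bases before the gene start are shown, 5′ to 3′ on the gene's strand. Capitals mark matches on either strand to the E-box CANNTG, bound by myogenic factors, to TATAAA, and to the MEF2 motif.
Myl1, chr1:66945057-66945306, minus strand: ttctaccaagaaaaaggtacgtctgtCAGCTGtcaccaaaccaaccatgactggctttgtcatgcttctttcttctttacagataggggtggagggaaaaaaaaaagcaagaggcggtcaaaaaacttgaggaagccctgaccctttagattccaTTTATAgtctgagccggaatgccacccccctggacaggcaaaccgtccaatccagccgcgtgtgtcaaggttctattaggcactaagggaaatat
Pvalb, chr15:78206401-78206650, minus strand: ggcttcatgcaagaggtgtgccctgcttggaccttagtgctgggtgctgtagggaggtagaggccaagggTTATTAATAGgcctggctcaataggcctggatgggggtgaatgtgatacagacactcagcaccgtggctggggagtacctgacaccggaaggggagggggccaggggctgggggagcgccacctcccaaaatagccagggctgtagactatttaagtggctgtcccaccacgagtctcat
Tnnc2, chr2:164779735-164779984, minus strand: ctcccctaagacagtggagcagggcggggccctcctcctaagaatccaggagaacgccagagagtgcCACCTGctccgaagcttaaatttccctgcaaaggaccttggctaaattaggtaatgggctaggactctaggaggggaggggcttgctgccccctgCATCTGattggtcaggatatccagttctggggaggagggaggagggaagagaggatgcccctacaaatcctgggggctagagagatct
Tpm1, chr9:67049214-67049463, minus strand: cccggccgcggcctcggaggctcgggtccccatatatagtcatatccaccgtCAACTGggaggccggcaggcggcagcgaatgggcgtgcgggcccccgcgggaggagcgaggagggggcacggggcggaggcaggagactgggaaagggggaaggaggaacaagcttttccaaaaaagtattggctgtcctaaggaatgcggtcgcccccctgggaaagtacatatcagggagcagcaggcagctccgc
Myl1 held an E-box of the form CAGCTG starting at -224 relative to the gene start and a reverse-strand TATAAA at -95. Pvalb, which has 2 entries of which the upstream one is shown, held a MEF2 match at -180 and no E-box in this window. Tnnc2 held E-boxes at -183 and -88 and Tpm1 held 1 at -198. The other Pvalb entry held an E-box at -111 and no other match, so an E-box is common to Myl1 and that entry, as it is to Tnnc2 and Tpm1. Of 32851 promoter windows of this length, 66.2% held CANNTG, 13% its form CAGCTG, 12.4% TATAAA and 2.92% a MEF2 match. A match is a description of the letters and not a site shown to be bound.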

How the data were processed

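RNA of 19 libraries was sequenced single-end, per the labels' protocols, which also state that RNA with an integrity number below a limit was left out. The deposited values are a signal that the authors normalized between libraries, 1 per gene in each column. The submitters' processing notes list STAR 2.78a, DESeq2, Partek and mm39 without saying what each did, and the annotation and counter are not stated. From the steps between low values 1 read was worth 0.903 to 1.093, but only 85.12 to 86.32% of low values then came out whole, to within 0.02 of a read, so no count test was run. All 19 columns map to samples, and 0 columns belong to none.

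The test was limma-trend (limma 3.58.1, R 4.3.3) on log2(value + 1), in 1 model of 4 group means over 19 libraries, for 13367 genes with a mean of at least 10 (1340 left out). Residual degrees of freedom were 15 and prior ones 4.37. P-values were adjusted by Benjamini-Hochberg over all genes tested within each of 6 comparisons, and a gene was called at an adjusted p under 0.05. The log2(value + 1) scale understates changes of low genes. Log2 ratios of 9 fast and slow pairs were compared by exact two-sided permutation tests, adjusted over 45 tests. mRNA lengths are those of the longest principal transcript in GENCODE M21. Per-library values, ratios and plots were made in Python 3.11.15 (scipy 1.17.1, numpy 2.4.6, matplotlib 3.10.9, pandas 2.3.3), and the limma code was tested on simulated data. The 10 genes, the gene lists and the tests were chosen with earlier results of these data known. Named are all 10 genes, the 9 slow partners, called members of 4 further lists (at most 6 per list and comparison, by lowest p) and the genes most alike in profile. Some genes under this rule are not reported here. The alternatives tried were the pseudocount, the filter, scaling, library weights, robust variance moderation, the groups of a comparison alone, a tendon and a clock covariate, an mRNA length correction and left-out libraries.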

Additional observations from a re-analysis of the deposited data

Results flagged for a closer look

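Of 76 sets of 4 or 5 libraries (each fast gene and each ratio in each group), 4 held a library far from the rest, where chance gives about 1 in 20. Mylpf was lowest in AL1, at 102 ku, where the other aged lean libraries lay between 109.2 and 109.9 ku. Pvalb was highest in YL2, at 126.5 ku, where the other young lean libraries lay between 83.5 and 90.0 ku, and without YL2 its log2 change with diet in the young was 0.61 (limma, adjusted p = 0.0129). The log2 ratio of Tnnc2 to Tnnc1 was lowest in YO5, at 6.34, against 7.22 to 7.54 in the other young obese libraries. The log2 ratio of Mybpc2 to Mybpc1 was lowest in AO5, at 1.67, against 2.47 to 2.73 in the other aged obese libraries.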

How the results depend on the processing

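Across 33 alternatives (32 for the interaction), 1925 of 1970 values of the fast genes kept their side of the threshold, 23 gained a call, 22 lost one and 0 reversed, while 107 values that were never called changed sign. For diet in the young, 2 genes were called: 3 with library weights, which added Mybpc2 (-0.36, limma adjusted p = 0.0289), 3 without YL1 and YO2, 1 under quantile normalization, and 0 with the groups of the comparison alone, with the tendon covariate, with the clock covariate, without YL3 and YO3, and with the length correction. Leaving out single libraries gave 0 to 3. For age on the high-fat diet, where 0 were called, there was 1 at a minimum mean of 50, with robust variance moderation and without YL1 and YO2, and 2 under scaling to library totals, quantile normalization and library weights, and single libraries left out gave 0 to 1. For the interaction, 1 was called under scaling to library totals and library weights and 2 without YL1 and YO2. Diet in the aged, age on the lean diet, and age and diet together stayed at 0 in all 33. The ratios were recomputed with 19 left-out libraries and 4 other alternatives and gave 0 each time, in tests that could hardly pass the adjustment, so that count says nothing of stability. Over all genes, 0 to 3421 were called for diet in the young across the alternatives other than single libraries left out (1475 as reported), 26 to 169 for diet in the aged (39), 130 to 1565 for age on the lean diet (545), 12 to 2840 for age on the high-fat diet (1206), 389 to 1711 for both together (746) and 0 to 2694 for the interaction (398). Scaling to library totals turned the split of higher genes for age on the lean diet to 403 of 567, from 279 of 545, and for diet in the aged to 14 of 52, from 18 of 39. Quantile normalization turned it for diet in the young to 640 of 1543, from 762 of 1475, and library totals to 611 of 1392. For age on the high-fat diet it was 556 of 1206, against 651 of 1186 with library totals and 769 of 1392 with quantile normalization. No cause of these shifts was tested. Leaving out a library reduces an arm to 3 or 4. No paired analysis was possible because the replicate numbers follow the order of accession and pair no libraries across groups.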
